A study of Homo sapiens with 3 samples.

Results

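The transcriptome of PANC-1 cells under okadaic acid was set directly against that under cantharidin. PANC-1 is an established line of human pancreatic ductal carcinoma that has lost the CDKN2A locus. The series holds 3 one-colour arrays, and the comparison rests on 2 of them, with 1 array for each agent. The groups are untreated control cells, cells given 20 µM cantharidin and cells given 20 µM okadaic acid, and treatment lasted 24 h. The doses are as labelled, and okadaic acid is usually given to cells at far lower concentrations. All 3 share the cell line and culture medium, and the labels name no solvent for the control. Of 19699 genes with a named probe, 14604 had their brightest probe well above background on both treated arrays, and these were compared. With 1 array a side no test was possible, no difference has a replicate check, and differences between cultures cannot be told apart from differences between the agents.

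Protein phosphatase 2A (PP2A) is a family of serine and threonine phosphatases, each built from a scaffold, a catalytic and an exchangeable regulatory subunit. It removes phosphate from kinases of the ERK, JNK and protein kinase C pathways and from regulators of NF-κB, so its inhibition raises signalling in several of them. Cantharidin is a terpenoid from blister beetles, and okadaic acid is a polyether toxin made by marine dinoflagellates. Both bind at the catalytic site of PP2A, and both can also inhibit related phosphatases at higher concentrations. The study used okadaic acid as the classic PP2A inhibitor to ask whether it shared the effects of cantharidin on angiogenesis genes. The direct comparison asks instead where the transcript levels under the agents part.

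Epithelial and line markers were mostly detected. Detection alone cannot settle cell identity here, since 10 of 13 markers of other tissues also had signal well above background. Keratin genes KRT7, KRT8, KRT18 and KRT19, with EPCAM, MUC1 and VIM, were well above background on all 3 arrays. The adhesion gene CDH1 was so in control cells alone. Of the 13 markers of endothelium, leukocytes, acinar cells and islets, PECAM1, CPA1 and SST were below background on all arrays, and the other 10 had signals between 80.6 and 11040. CD14, a receptor of innate immunity, had the brightest of them. Its signals were 2535, 1838 and 11040 (control first, then cantharidin, then okadaic acid), so it was higher under okadaic acid. The arrays differed in brightness. The 75th percentile of signal, in intensity units, was 784.2 in control cells, 712.6 with cantharidin and 936.1 with okadaic acid. The dimmest probe well above background had 35.0, 21.9 and 58.0 units. Each array was therefore scaled to its own 75th percentile. A difference is log2 of okadaic acid minus log2 of cantharidin after this scaling, and a gene is called higher or lower at 1.5-fold, the threshold of the study.

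Over all probes measured on both arrays, 6513 of 22403 (29.1%) were higher under okadaic acid and 4374 (19.5%) were lower. Counted by gene, 4442 (30.4%) were higher and 2944 (20.2%) lower. The median difference over these genes was 0.17 and not 0, so class medians below are to be read against 0.17. The size of the excess depended on the processing. Without scaling it was 10918 higher and 2530 lower. Subtracting each array's median moved the probe counts to 5146 higher and 5411 lower and the median over all probes from 0.17 to 0.02. Cyclic loess gave 5185 and 4832, quantile normalization 5478 and 4680, the normexp background correction 3937 and 3828, centring within blocks of the array 4888 and 5582, and the values normalized by the authors 6121 and 4943.

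The excess also went with brightness. Among the dimmest 10% of probes the median difference was 0.54, with 46.6% higher and 1.34% lower, whereas among the brightest 10% it was -0.17, with 19.8% higher and 26.6% lower. The okadaic acid array had the higher background floor. Outside this comparison, 2700 probes were well above background on the cantharidin array but not the okadaic acid array, and 668 the reverse. Without the filter on dim probes, 12856 probes were higher and 6370 lower, with a median difference of 0.29. The part of the floor in the trend by brightness was not tested. Cyclic loess narrowed the trend to between 0.24 in the dimmest 10% and -0.01 in the brightest 10%. Large differences were well outside the noise of single spots. Among 766 probes printed in 10 spots, the pooled SD of a single-spot difference was 0.19, ranging from 0.41 in the dimmest 10% to 0.10 in the brightest 10%. At least 4-fold differences were found for 536 genes higher and 366 lower, and at least 16-fold for 24 and 10. Probes of one gene did not always move together: of 1423 genes with several probes that were past 1.5-fold on the brightest, 712 were so on every probe and 308 had a probe of the opposite sign.

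**Figure D1:**
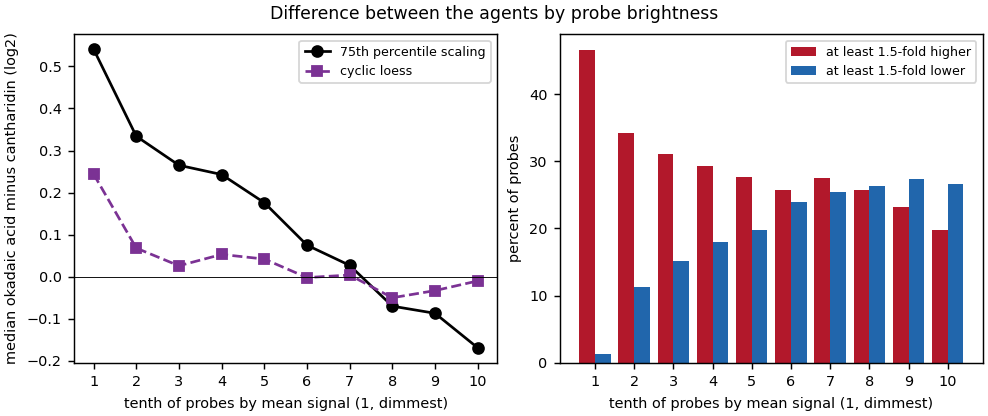
Difference between the agents by probe brightness over 22403 probes in 10 bins of mean signal. Left, median log2 difference (okadaic acid minus cantharidin) under 75th percentile scaling, falling from 0.54 to -0.17, and under cyclic loess. Right, percent of probes at least 1.5-fold higher (red) or lower (blue) under okadaic acid.

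The genes with the largest differences in favour of okadaic acid had varied functions. Signals are given throughout in the order control, cantharidin, okadaic acid. IFIT1, an interferon-induced protein that binds foreign RNA, had signals of 1949, 53.9 and 6666, a difference of 6.56 or 94.1-fold. It was low under cantharidin and highest under okadaic acid, and under normexp its difference was 5.18. ADAMTS1, a secreted metalloprotease that cleaves proteoglycans and restrains angiogenesis, had 106, 119 and 10750, so cantharidin cells lay within 1.5-fold of control and okadaic acid cells 69.0-fold above cantharidin, with its probes giving 6.02 and 6.11. CDKN1C, which encodes the CDK inhibitor p57, was bright on all arrays with 13560, 6046 and 285300 and was 35.9-fold higher under okadaic acid. IL23A, the p19 subunit of interleukin-23, had 106, 3411 and 110500. It was higher than control under both agents and a further 24.7-fold higher under okadaic acid. CD69, an early activation antigen of lymphocytes, had 125, 54.8 and 2894 and a difference of 5.33 ± 0.07 (SE over spots of 1 probe, 9 spots under cantharidin and 10 under okadaic acid).

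Several other genes at this end of the range were set apart by a low signal under cantharidin. RAB3A, a GTPase of regulated exocytosis, had 11730, 531 and 27850, 20.1-fold lower than control under cantharidin. Okadaic acid cells had 39.9 times the cantharidin level. B3GALT4, a galactosyltransferase of ganglioside synthesis, had 1101, 122 and 6890, and FAM43B had 1206, 119.9 and 4796. NAA80, the acetyltransferase of actin, had 781, 80.6 and 2429. For these the cantharidin array was the low one. The stress kinase gene NUAK2 (1384, 736 and 19680), the Wnt pathway genes FRAT2 (2666, 564 and 16260) and AMER1 (107, 94.9 and 2649) and the lipid droplet gene HILPDA (4265, 1072 and 31410) were at least 20-fold higher under okadaic acid.

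The genes lowest under okadaic acid relative to cantharidin were mostly dim in control cells and bright under cantharidin alone. RIIAD1 had 101, 2815 and 81.5, a difference of -5.51 (-4.24 under normexp). ZP4, a protein of the egg coat, had 149, 1623 and 64.8 (-5.04). DRD5, a dopamine receptor, had 127, 7200 and 534, and its probes gave -4.15 and -3.44. In all of these the cantharidin array was the high one. OLAH, ATP6V0D2, ADAMTS16 and CHST1 had no signal well above background in the control, with signals under cantharidin of 1572, 1516, 1866 and 3060 and under okadaic acid of 72.3, 87.2, 147 and 244. PCK2, the mitochondrial phosphoenolpyruvate carboxykinase, had 584, 2811 and 219 with a difference of -4.07, although its other probe gave -1.71. UCN, a stress peptide of the corticotropin-releasing family, had 768, 2377 and 221. The kinase gene PAK6 (95.7, 2193 and 221), the phospholipase gene PLB1 (62.2, 2102 and 147), NIBAN3 (82.2, 942 and 76.1), THAP6 (77.4, 1051 and 106) and the long non-coding RNA LINC00174 (76.7, 2828 and 291) completed the 14 lowest.

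**Figure D2:**
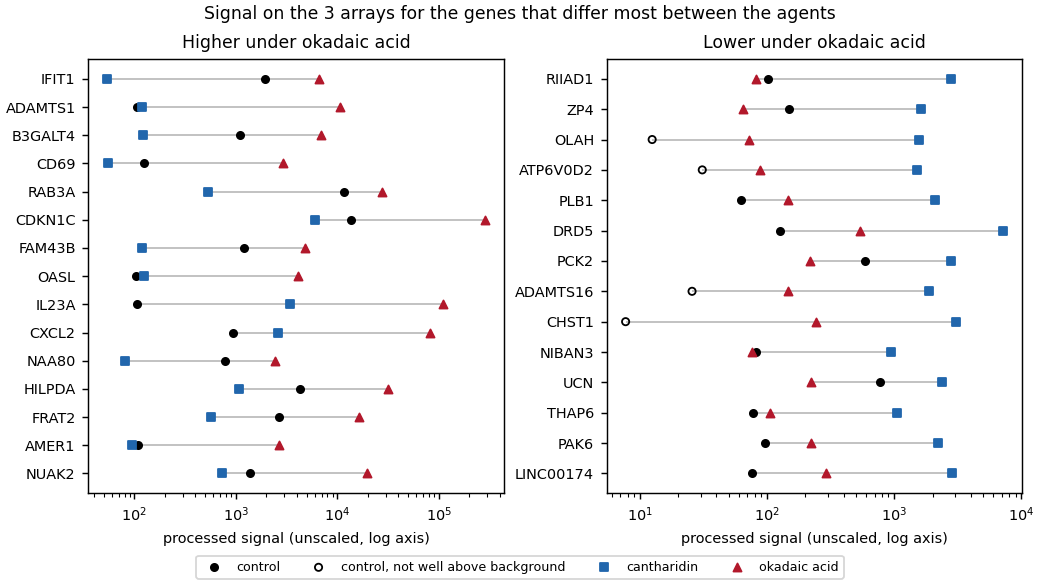
Processed signal, unscaled and on a log axis, on all 3 arrays (colours as in the legend) for the 15 genes most above and the 14 most below cantharidin under okadaic acid. Grey lines join the lowest and highest signal of a gene and open circles mark control signals not well above background. Some of the left-hand genes are set apart by a low cantharidin signal, others by a high okadaic acid signal. On the right the cantharidin signal is the highest of the 3 for every gene.

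Genes seen on 1 treated array only were bounded against the dimmest measurable signal of the other. TMT1B was at least 33.4-fold higher under okadaic acid (signals of 46.1, 10.2 and 961). The interferon-stimulated genes HERC5 (169, 20.4 and 704) and IFI44 (67.9, 5.78 and 659) were at least 24.5-fold and 22.9-fold higher. SPANXN5 followed at 17.7-fold at least. On the cantharidin side the bounds were at least 41.0-fold for the olfactory receptor OR2T33, at least 37.3-fold for the pseudogene LAMB2P1, at least 31.4-fold for the transcription cofactor LMO3, at least 29.3-fold for chemerin (RARRES2) and at least 28.9-fold for the peptide hormone gene SPX. Their signals under cantharidin lay between 1276 and 1812, against 33.4 or less under okadaic acid.

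Of 71 gene classes, 18 had a median at least 1.5-fold higher under okadaic acid and 1 at least 1.5-fold lower. All of these kept their sign under every alternative tried, and 11 stayed past 1.5-fold in each of the scaled ones. The lower one was the ATF4 integrated stress response, and the next lowest were the cytosolic aminoacyl-tRNA synthetases. At the other end were CDK inhibitors, early response genes, chemokines, HOX genes, inhibitors of differentiation, metallothioneins and interferon-stimulated genes. The counts in each class are given below beside those over all genes (30.4% higher, 20.2% lower, median 0.17) and as descriptions only.

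**Figure D3:**
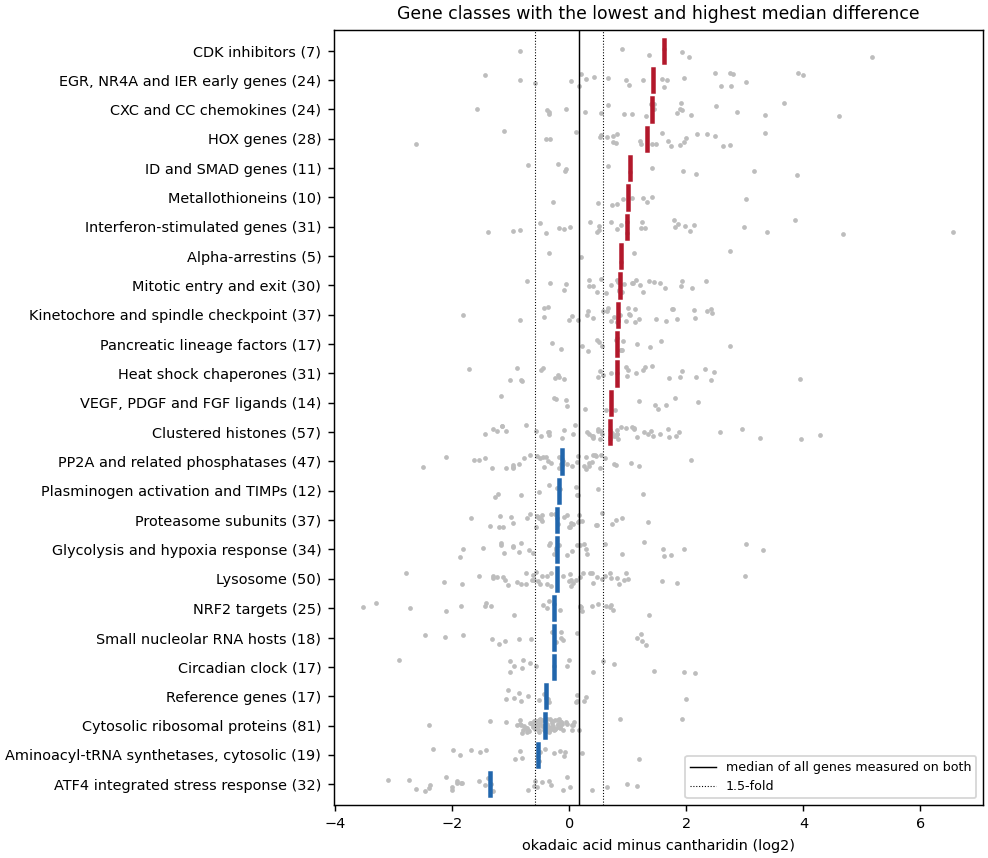
Log2 difference (okadaic acid minus cantharidin) of every member measured on both treated arrays (grey points) and the class median (bar, red for the highest medians and blue for the lowest), with the number of members measured in brackets. The solid line is the median of all genes, 0.17, and the dotted lines mark 1.5-fold. Medians run from 1.62 for CDK inhibitors to -1.36 for the ATF4 stress response.

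Chemokines, the secreted attractants of leukocytes, were the clearest secreted class. Of 24 measured, 17 were higher under okadaic acid (70.8%) and CCL27 alone was lower (-1.58), with a median of 1.42. CXCL2 had signals of 929, 2579 and 82710 and a difference of 4.61, with 3.65 on its other probe. CXCL3 had 355, 553 and 7332 (3.34) and CXCL1 3911, 8300 and 79650 (2.87). These neutrophil attractants were lowest in control cells and highest under okadaic acid. The monocyte attractant CCL2 was different. Its signals were 2967, 192 and 3195, so okadaic acid cells were within 1.5-fold of control, and the difference of 3.67 ± 0.05 (SE over 10 spots on each array) came with a low signal under cantharidin. CCL4 (2.51), CCL26 (2.09), CCL3 (1.92), CCL7 (1.91) and CCL20 (1.90) were also higher under okadaic acid. Under normexp the differences shrank to 1.40 for CCL4, 1.36 for CCL26, 1.31 for CCL3 and 0.94 for CCL7. CXCL8 (interleukin-8) had 315, 13630 and 37770, far above control under both agents and 2.11-fold apart between them. CXCL5, the neighbour of these CXC genes on chromosome 4, had 363, 653 and 661 and a difference of -0.38. CXCL1, CXCL2 and CXCL3 have similar sequences, and cross-hybridisation among them was not tested.

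The promoters of CXCL2, CXCL3 and CXCL5 are shown because they hold the same kappa B letters while the genes differed between the agents by 4.61, 3.34 and -0.38. The sequences are from RefSeq (GRCh38.p14), on the minus strand and upstream of the start, and the capitals mark the kappa B matches, of which each stretch holds 2 that overlap. They span chr4:74099213-74099312 for CXCL2, chr4:74038708-74038807 for CXCL3 and chr4:73998708-73998807 for CXCL5.
CXCL2: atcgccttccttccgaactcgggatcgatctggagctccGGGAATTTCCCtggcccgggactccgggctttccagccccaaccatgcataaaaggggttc
CXCL3: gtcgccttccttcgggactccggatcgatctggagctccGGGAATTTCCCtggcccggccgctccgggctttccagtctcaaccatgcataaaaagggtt
CXCL5: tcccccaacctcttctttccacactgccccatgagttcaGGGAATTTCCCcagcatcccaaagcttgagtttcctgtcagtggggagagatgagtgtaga
A kappa B match on either strand was between 250 bases before and 50 after the start in 5 of 15 measured chemokine genes with such a RefSeq window (33.3%), in 44 of 417 genes at least 4-fold higher (10.6%), in 8.68% of all genes measured and in 7.09% of all 27305 genes with a window. A match is a description of letters and not of a site in use. A gene with several windows was counted if any of them held a match.

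Cytokines were less uniform. Of 25 interleukins and colony-stimulating factors, 8 were higher and 2 lower, with a median of 0.28. Besides IL23A, the granulocyte and macrophage growth factor CSF2 was higher (58.8, 240.3 and 2981, difference 3.24). IL1B (1.34, but 0.53 and within 1.5-fold under normexp) and LIF (1.19 and 0.43 on its other probe) were higher by less. KITLG, the ligand of the KIT receptor, went the other way with 9.2, 1190 and 179.6 (-3.12) without signal well above background in the control, and so did IL18 with 1693, 6487 and 3324 (-1.36 ± 0.04, SE over 10 spots on each array). IL6 was dim on all arrays (60.0, 67.9 and 86.4) and differed by -0.05. None of 11 TNF superfamily ligands was lower and 6 were higher, with a median of 0.66, which fell to 0.40 under normexp. TNF itself had 169, 377 and 4295 (3.12) and the lymphotoxin LTB 175, 59.8 and 463 (2.56). Receptors were mixed, with 9 of 23 higher and 4 lower. The death receptor TNFRSF10B (8612, 58610 and 14830, difference -2.38) and the decoy receptor TNFRSF10D (-2.23) were the lowest, and NGFR (2.33) was the highest.

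Interferon-stimulated genes, which block viral replication and sense viral RNA, separated the agents widely. Of 31 measured, 19 were higher under okadaic acid (61.3%) and 3 lower, with a median of 0.98. Against control the class median was -0.25 under cantharidin and 0.66 under okadaic acid. The oligoadenylate synthetase genes OASL (103, 123 and 4137, difference 4.68) and OAS1 (425, 58.9 and 803, difference 3.38) and IFIT2 (90.0, 159 and 3024, difference 3.85) were more than 10-fold higher. ISG15, a ubiquitin-like modifier, was bright with 20420, 8008 and 83710 (2.99), below control under cantharidin and above it under okadaic acid. RNA sensors IFIH1 (2.14), RIGI (1.30) and DHX58 (1.25) and the factors IRF7 (2.07) and STAT2 (1.79) were higher too. The 3 lower members were TRIM21 (-1.39), IFI35 (-0.96) and MX1 (-0.84). Among the interferon ligands, IFNL1 had 158, 213 and 3451 and IFNL2 1053, 771 and 5036, both higher under okadaic acid, whereas IFNB1 had 49.2, 55.7 and 70.5. These ligands were looked up after the values of the class had been seen, and IFNL1 and IFNL2 are close in sequence.

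The promoters of IFIT1 and ISG15, both of which moved from control in opposite directions under the agents, are shown with that of IFITM1, a membrane protein gene with a match whose difference was 0.02. The capitals mark matches to the interferon-stimulated response element, taken as GAAA, any 2 bases and GAAA, on either strand. In ISG15 the matches overlap. The stretches are upstream of the start on the plus strand of GRCh38.p14 (RefSeq), at chr10:89392480-89392579 for IFIT1, chr1:1013350-1013449 for ISG15 and chr11:313940-314039 for IFITM1.
IFIT1: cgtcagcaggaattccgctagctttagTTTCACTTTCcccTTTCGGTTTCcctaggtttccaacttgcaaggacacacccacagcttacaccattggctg
ISG15: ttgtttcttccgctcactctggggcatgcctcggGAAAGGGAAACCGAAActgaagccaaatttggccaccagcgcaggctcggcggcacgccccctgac
IFITM1: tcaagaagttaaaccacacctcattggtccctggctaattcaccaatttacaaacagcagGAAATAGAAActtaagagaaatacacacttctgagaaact
The element was in the window of 13 of 21 measured class members (61.9%), of 3.9% of all genes measured and of 4.38% of all genes with a window. Among genes at least 4-fold higher, 14 of 417 held it (3.36%). Its part in the difference between the agents was not tested.

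Early response genes, which cells switch on within minutes of a stimulus, were another class with a high median, at 1.43 (16 of 24 higher, 3 lower). Here both agents mostly stood above control, with class medians of 1.05 under cantharidin and 1.76 under okadaic acid. EGR4 had 21.1, 2985 and 59070 and EGR2 7.46, 1144 and 10110, neither of them measurable above background in control cells. RASD1, a RAS-like GTPase, had 744, 27680 and 295600 (3.02 ± 0.05, SE over 10 spots on each array). EGR1, the best known of the family, did not separate the agents (1003, 78130 and 104500, difference 0.03). The orphan receptor NR4A2 had 994, 158 and 3306 (3.99, and 3.82 on its other probe) and NR4A3 58.1, 120.1 and 1102 (2.81). The matrix protein CCN1 (21350, 5432 and 48600) and the apoptosis regulator IER3 (2.49) were higher under okadaic acid as well. The lower members were CREM (-1.43), IER5L (-0.84) and NAB1 (-0.59), but none of these calls held with the median of a gene's probes in place of the brightest (-0.37, 0.63 and 0.28). The AP-1 factors, dimers of FOS, JUN and ATF proteins, had a median of 0.06, with 5 of 17 higher and 7 lower. FOS (3434, 8879 and 72510, difference 2.64) was higher, ATF3 (1688, 130200 and 25720, difference -2.73) and MAFF (-1.88) were lower, and JUN differed by 0.12 and FOSB by 0.06. Of 17 Krüppel-like factors, 9 were higher and none lower (median 0.67, 0.40 under normexp), led by KLF2, a factor of endothelial quiescence (1486, 1244 and 14590, difference 3.16).

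NF-κB subunits and their feedback inhibitors did not shift as a class, with 9 of 23 higher, 5 lower and a median of -0.06. The inhibitors NFKBIA (35740, 33090 and 168700, difference 1.96 ± 0.02, SE over 8 spots on each array), NFKBIE (1.86) and TNFAIP3 (804, 2235 and 9140, difference 1.64) were higher under okadaic acid. The subunits RELA (1281, 5617 and 2825, difference -1.39) and RELB (-1.40) and the kinase scaffold IKBKG (-1.42) were lower. Neither group was uniform, since the inhibitor NFKBIB was lower (-0.82), the subunit NFKB1 was higher (0.67) and REL differed by -0.03.

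The class medians of cell cycle genes were below control under both agents and less so under okadaic acid, though single genes departed from this. Genes of mitotic entry and exit had a median of -2.17 against control under cantharidin and -1.39 under okadaic acid, and 21 of 30 were higher in the direct comparison, with FOXM1 alone lower (-0.71). Kinetochore and spindle checkpoint genes had -2.60 and -1.43, with 25 of 37 higher, and CENPA (-1.81) and CENPL (-0.84) lower. The mitotic kinase gene AURKA had 2324, 590.1 and 2912 and the cyclin gene CCNB1 24020, 4231 and 16300 (1.55, and 0.53 on its other probe). Both had their lowest signal under cantharidin. CDK1, the kinase of mitotic entry, had 10140, 151 and 477, so that both agents were far below control. HJURP, the loader of centromeric histone, had 26390, 1742 and 11680 and CENPU 716, 38.1 and 271 (2.44, and 1.31 under normexp). DNA replication genes had class medians of -1.61 and -0.69 against control. Of 48, 25 were higher in the direct comparison, and POLD2, RFC1 and MCM2 were lower. The sliding clamp gene PCNA had 16390, 4595 and 29030 (2.27 ± 0.04, SE over 10 spots on each array) and thymidine kinase TK1 26430, 4209 and 20200 (1.87). Genes of homologous recombination and the Fanconi pathway followed the same order, with 16 of 30 higher and 2 lower.

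CDK inhibitors, the brakes of the cycle, had the highest median of all classes, 1.62, with 6 of 7 higher. CDKN1B (p27) had 5000, 252 and 1373, low under both agents and lowest under cantharidin. CDKN2D (p19) had 15150, 6461 and 32170 (1.92) and CDKN2C (p18) 3136, 814 and 2741 (1.36). CDKN1A, which encodes p21, was the lower member with 255, 2302 and 1691 (-0.84), above control under both agents. The probe annotated to CDKN2A had 2599, 2280 and 9224. As the locus is known to be lost in PANC-1, what this probe binds here was not tested, and the median of the class without it was 1.64. Among the G1 cyclins, CCND2 was high only under cantharidin (86.0, 820.0 and 129.5) and CCND3 was low there (3055, 804 and 5702), and CCNE1 was higher under okadaic acid (2723, 1846 and 8180).

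The letters TTTGAA, the core of the cell cycle homology region, were on either strand in the windows of 16 of 24 mitotic genes (66.7%) and 15 of 31 kinetochore genes (48.4%), against 14.3% of all genes measured and 18.2% of all genes with a window. Among genes at least 4-fold higher, 60 of 417 held these letters (14.4%), and among those at least 4-fold lower 42 of 275 (15.3%). The part of the letters in the difference between the agents was not tested.

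Replication-dependent histones, whose transcripts are made in S phase and are not polyadenylated, differed in median by core type. Over the 57 measured, 31 were higher and 7 lower, with a median of 0.70. Of the H2A genes 11 of 14 were higher and none lower (median 1.09), and of the H3 genes 10 of 11 (0.83). The H2B genes had 6 of 17 higher and 1 lower (0.50), the H4 genes 4 of 12 higher and 5 lower (-0.42), and of 3 linker H1 genes none was higher and 1 lower (-0.36). The differences between types were not tested. H2AC20 had 719.8, 72.9 and 1857 and H3C10 699, 298 and 6064, both below control under cantharidin and above it under okadaic acid. Histone genes are alike in sequence, and the binding of neighbours to one probe was not tested.

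HOX genes, the patterning factors of the body axis, had 21 of 28 higher under okadaic acid, 2 lower and a median of 1.32 (0.78 under normexp). Each cluster had a median on this side, from 0.75 for HOXA to 1.74 for HOXC. HOXB4 had 6400, 457 and 3721 and HOXB6 18320, 2241 and 16450. Both were lowest under cantharidin, and under okadaic acid HOXB4 was also below control (-1.04) while HOXB6 was within 1.5-fold of it. HOXC6 had 5748, 2306 and 20360, and HOXD1, dim in control cells, 58.6, 144 and 1921. HOXB9 was the exception within the HOXB cluster with 556, 11030 and 2365 (-2.62), and HOXD3 was lower too (-1.11). Pancreatic lineage factors had 10 of 17 higher and none lower, led by the motor neuron and beta cell factor MNX1 (2.74), the endodermal factor FOXA2 (1.56) and the Notch target HES1 (1.37).

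The ID and SMAD genes, targets and mediators of BMP and TGF-β signalling, were also mostly higher under okadaic acid. Of these 11 genes, 7 were higher and SMAD4 was lower (-0.71), with a median of 1.05. Against control their class medians were -1.22 under cantharidin and -0.18 under okadaic acid. Ligands of the TGF-β family had 7 of 20 higher (35.0%, against 30.4% over all genes) and 2 lower, with a median of 0.39. ID2, an inhibitor of helix-loop-helix factors, had 611, 3303 and 38890 (3.16, and 3.17 on its other probe), above control under both agents. The inhibitory SMAD6 had 981, 103 and 2008 (3.89) and ID1 64250, 7831 and 27260 (1.41). Metallothioneins, the small zinc and copper binding proteins, were lower than control under both agents, with class medians of -2.84 under cantharidin and -1.81 under okadaic acid. In the direct comparison 8 of 10 were higher and none lower. MT1M had 42510, 743 and 7902 (3.02) and MT1X 143100, 14020 and 49100 (1.42). Most members of this family are near copies, so their probes are not independent.

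Heat shock chaperones, which refold damaged protein, had 17 of 31 higher and 5 lower, with a median of 0.81. HSPA2, the testis member of the HSP70 family, had 309.6, 152 and 3087 (3.95). The inducible HSPA1B had 31360, 24370 and 160600 and HSPA6 119, 261 and 1906 (2.48, and 0.67 on its other probe). HSPA1A and HSPA1B encode the same protein, and their probes cannot be taken as separate. The master factor HSF1 was lower under okadaic acid (20690, 49700 and 19900, difference -1.72), as was the constitutive HSPA8 (-1.02). The letters GAANNTTC were in the windows of 14 of 27 members (51.9%), against 6.84% of all genes measured and 8.21% of all genes with a window. Among genes at least 4-fold higher, 30 of 417 held these letters (7.19%), and among those at least 4-fold lower 12 of 275 (4.36%). The part of the letters in the difference between the agents was not tested. Cholesterol and fatty acid synthesis had 16 of 33 higher, 5 lower and a median of 0.54 (0.39 under median scaling). INSIG1, which retains the sterol sensor in the endoplasmic reticulum, had 12880, 3325 and 16990 (1.96) and the epoxidase SQLE 6848, 3380 and 13480, while the regulator SREBF2 was lower (-1.42). TXNIP, an inhibitor of thioredoxin and of glucose uptake, was lower than control under both agents and lowest under cantharidin (4131, 38.9 and 342). Its difference was 2.74, and 1.51 under normexp.

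The integrated stress response ran the other way and had the lowest median of all classes, at -1.36. When translation factor eIF2 is phosphorylated, the factor ATF4 is made and switches on amino acid import, serine and asparagine synthesis and tRNA charging. Of 32 genes, 20 were lower under okadaic acid (62.5%) and DDIT4, VLDLR and GDF15 were higher (1.15, 0.98 and 0.65). Against control the class had medians of 1.59 under cantharidin and 0.39 under okadaic acid. ASNS, asparagine synthetase, had 15330, 87680 and 22200 (-2.38), high under cantharidin and within 1.5-fold of control under okadaic acid. PHGDH, the first enzyme of serine synthesis, had 6373, 25310 and 5447 (-2.61), and NUPR1, a stress cofactor, 8704, 32440 and 7681 (-2.47). The pattern in both was that of ASNS. The cysteine enzyme gene CBS had 18780, 54120 and 8295 (-3.10) and DDIT3, which encodes the apoptotic factor CHOP, 9122, 28540 and 7145 (-2.39). Both were above control under cantharidin and below it under okadaic acid. Amino acid transporters SLC7A5 (-2.11), SLC3A2 (-1.92) and SLC7A11 (239, 5283 and 1915, difference -1.86) were lower too. ATF4 itself (48800, 123300 and 99080, difference -0.71) differed least among the lower members apart from EIF4EBP1. ATF3 was far above control under both agents with 1688, 130200 and 25720, and its probes gave differences from -3.44 to -0.32. CHAC1, a glutathione-degrading enzyme, was also far above control under both and did not separate them (1792, 63440 and 77800, difference -0.10).

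Cytosolic aminoacyl-tRNA synthetases, which charge tRNAs with amino acids, had 9 of 19 lower, HARS1 alone higher (1.19) and a median of -0.54. CARS1 had 1524, 6959 and 1817 (-2.33), NARS1 2619, 6140 and 2511 (-1.68 ± 0.03, SE over 8 spots under cantharidin and 10 under okadaic acid) and GARS1 1987, 13610 and 6208 (-1.53). For CARS1 and NARS1 the okadaic acid array lay within 1.5-fold of control, and for GARS1 between control and cantharidin. VARS1 had 21950, 36540 and 12180 (-1.98), below control under okadaic acid.

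The promoters of ASNS, ATF3 and CHAC1 are shown because all hold the ATF4 response letters TGATGNAA (capitals, either strand) and yet differed between the agents by -2.38, -2.73 and -0.10. They are from RefSeq (GRCh38.p14) and upstream of the start, on the minus strand at chr7:97872417-97872516 for ASNS and on the plus strand at chr1:212565176-212565275 for ATF3 and chr15:40953222-40953321 for CHAC1. ASNS and ATF3 each have a second RefSeq start whose upstream bases, not shown, hold no match.
ASNS: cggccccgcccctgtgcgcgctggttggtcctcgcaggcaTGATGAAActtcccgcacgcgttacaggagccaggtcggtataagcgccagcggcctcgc
ATF3: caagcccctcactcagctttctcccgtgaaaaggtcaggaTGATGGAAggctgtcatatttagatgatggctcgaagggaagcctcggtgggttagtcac
CHAC1: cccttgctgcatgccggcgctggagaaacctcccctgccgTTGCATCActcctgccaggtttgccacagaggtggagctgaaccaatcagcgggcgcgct
These letters were in the windows of 8 of 26 stress response genes (30.8%) and 7 of 16 synthetase genes (43.8%), against 15 of 275 genes at least 4-fold lower (5.45%), 3.2% of all genes measured and 4.46% of all genes with a window.

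Other stress classes had lower medians of smaller size, each under 1.5-fold. NRF2 targets, which answer oxidants, had 9 of 25 lower and 5 higher (median -0.26). SRXN1, which repairs peroxiredoxins, had 6965, 62150 and 7138 (-3.52) and OSGIN1 393, 2968 and 397 (-3.30), both within 1.5-fold of control under okadaic acid. GCLC, the first enzyme of glutathione synthesis, was higher (1.36), and HMOX1 and NQO1 differed by 0.18 and -0.34. The unfolded protein response had 9 of 30 lower and 3 higher (-0.13). Its factor XBP1 had 5384, 24300 and 7172 (-2.15 ± 0.02, SE over 10 spots on each array) and the chaperone HSPA5 4132, 24090 and 10350 (-1.61). Autophagy genes had 15 of 39 lower and 4 higher (-0.10). The kinase ULK2 was among them (501, 1527 and 425, difference -2.24, and -0.09 on its other probe), as were ATG101 (2854, 18740 and 7024, difference -1.81) and the cargo receptor SQSTM1 (45850, 95790 and 46620, difference -1.43). Without scaling the medians of these classes and of the NF-κB class changed sign, to between 0.14 and 0.34, when the median over all probes rose to 0.56. Cytosolic ribosomal protein genes, all bright, had 24 of 81 lower, 2 higher and a median of -0.41, which was -0.17 under cyclic loess. Reference genes had much the same median, -0.40 (-0.16 under cyclic loess), with 6 of 17 lower and 1 higher. Without scaling the ribosomal median was -0.014, the reference median -0.008 and the synthetase median -0.14.

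The phosphatase genes themselves differed little as a class. Of 47 genes for PP2A, related phosphatases and their regulators, 6 were higher and 13 lower, with a median of -0.13. The catalytic subunit genes had 11730, 17570 and 21130 for PPP2CA (-0.13) and 5118, 9678 and 7032 for PPP2CB (-0.85), and the scaffold PPP2R1A had 3506, 4333 and 2919 (-0.96). The regulatory subunit PPP2R2A was above control under cantharidin and below it under okadaic acid (2342, 3853 and 1636, difference -1.63 ± 0.03, SE over 10 spots on each array). PPP6R2, a subunit of the related phosphatase PP6, had 2668, 10950 and 2542 with -2.50 and -2.28 on its probes. ENSA, an inhibitor of PP2A in mitosis, was the highest with 2.09, but its other probe gave -1.28.

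Of the 29 angiogenesis genes that the study named for these arrays, 26 were measured on both, 10 of them higher under okadaic acid and 8 lower (median 0.18). This list was chosen by the study on these samples. The higher ones were chiefly the chemokines and cytokines above (CXCL1, CXCL2, CXCL3, CXCL8, CXCL14, TNF and CSF2) with FGF1 (36.6, 63.5 and 382, difference 2.19, and 0.92 on its other probe), PGF (0.63) and EFNB2 (0.72). Among the lower ones VEGFA, the main endothelial growth factor, had 1193, 9534 and 5564 (-1.17), although its other probe gave 0.10. The metalloprotease inhibitor TIMP1 had 16050, 117300 and 66080 (-1.22) and tissue factor F3 94.7, 988 and 737 (-0.82). The others on the lower side were KITLG, SPHK1 (-1.09), ADGRB1 (-0.96), COL18A1 (-0.60) and RUNX1 (-2.27, with 5 probes from -2.27 to 0.84). PLAUR (0.13), RHOB (0.20), CD55 (-0.18), IL12A (0.15), IL1A (0.21) and IL10 (0.33) were within 1.5-fold. In the wider family of VEGF, PDGF and FGF ligands, 8 of 14 were higher and VEGFA alone was lower, and VEGFC (945, 154 and 560.0), PDGFB (1217, 224 and 1031) and PDGFA (322, 248 and 1029) had their lowest signal under cantharidin.

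Genes that moved from control in opposite directions were a small share. Both changes use the same control array, so an error in its signal enters both. Of 14222 genes measured on all 3 arrays, 311 (2.19%) were at least 1.5-fold higher than control under okadaic acid and at least 1.5-fold lower under cantharidin, and 175 (1.23%) showed the reverse. At 2-fold each the numbers were 71 and 32. Most of the separation lay elsewhere. Of the 4304 genes higher under okadaic acid than cantharidin and measured on all arrays, 1214 (28.2%) were past 1.5-fold from control only as lower under cantharidin, 954 (22.2%) only as higher under okadaic acid, 794 (18.4%) were lower under both, 511 (11.9%) were higher under both and 520 (12.1%) were past it under neither. Of the 2850 lower, 829 (29.1%) were higher than control under cantharidin only, 625 (21.9%) lower under okadaic acid only, 617 (21.6%) higher under both, 435 (15.3%) lower under both and 169 (5.93%) were past it under neither.

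**Figure D4:**
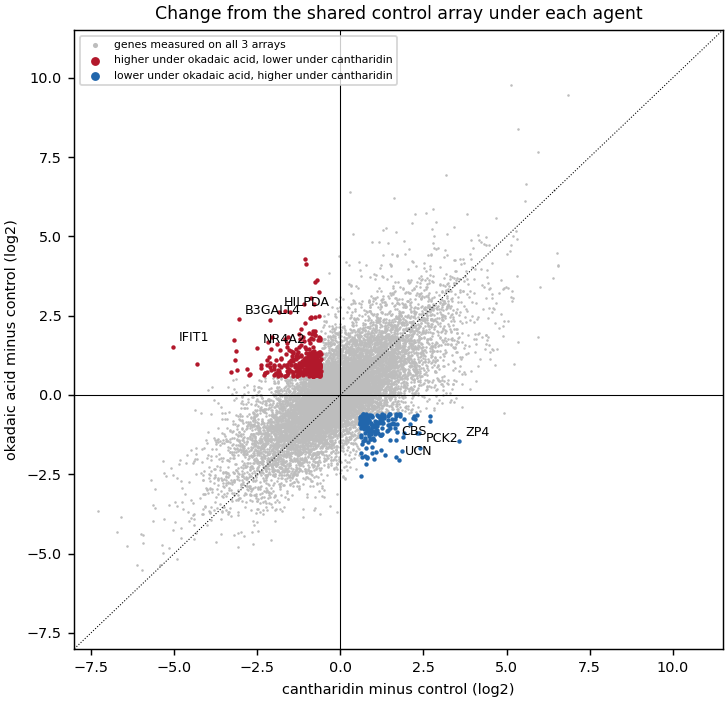
Log2 change from the shared control array under cantharidin (horizontal) and okadaic acid (vertical) for 14222 genes measured on all 3 arrays. The 311 genes higher under okadaic acid and lower under cantharidin are red, the 175 with the reverse are blue, and the dotted diagonal marks equal change. Because the control array enters both axes, the spread along the diagonal is no measure of likeness.

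Among genes up with okadaic acid and down with cantharidin, IFIT1 changed by -5.04 under cantharidin and 1.52 under okadaic acid, B3GALT4 by -3.04 and 2.39, HILPDA by -1.85 and 2.63 and FRAT2 by -2.10 and 2.35. The orphan receptor NR4A2 changed by -2.51 and 1.48, and IL4I1, an amino acid oxidase that dampens T cells, by -1.50 and 2.63 (539, 173 and 3982). RILPL2, a binder of RAB proteins, had 6309, 1534 and 23000, RGL1 199, 43.9 and 845, PPIP5K2, an inositol phosphate kinase, 375, 115 and 1595, FAM174B 1167, 349 and 3935 and the kinesin gene KIF26A 95.6, 28.8 and 356. RGL1 and KIF26A were dim under cantharidin. Under normexp the difference between the agents fell from 3.87 to 2.56 for RGL1 and from 3.23 to 1.62 for KIF26A. Classes with at least 5 such members were clustered histones (6 of 57), zinc finger ZNF genes (6 of 330), interferon-stimulated genes (5 of 31: IFIT1, IFIT5, ISG15, OAS1 and USP18) and HOX genes (5 of 28). Over all genes the share was 2.19%, and the ZNF genes lay near it. A cut-off by count favours large classes. Smaller classes with fewer such members included CDK inhibitors (2 of 7) and heat shock chaperones (3 of 31). EGFR was another gene of this kind, with 1072, 509 and 3188. Chemokines (22 genes), DNA replication genes (48) and AP-1 factors (17) had no member of either kind. At the shares over all genes, 2.19% and 1.23%, classes of this size may hold none. The angiogenesis genes of the study also had none, but the study listed them as changed the same way by both agents on these arrays.

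Genes up with cantharidin and down with okadaic acid were led by ZP4 (3.59 and -1.45), PCK2 (2.41 and -1.67) and UCN (1.77 and -2.05). CBS, among the brightest of them, changed by 1.67 and -1.43. MIR31HG, the host transcript of a microRNA, had 803, 2623 and 285. SEL1L3 (384, 1101 and 118), the endoplasmic reticulum gene JAGN1 (2754, 7000 and 1227), the RAB5 exchange factor RIN3 (409.6, 943 and 133), the exonuclease ERI2 (284, 946 and 135), the transporter SLC67A1 (14230, 30860 and 7184), the mitochondrial dehydrogenase ALDH5A1 (325, 693 and 160.3) and SH2D5 (5197, 11060 and 1865) made up the rest of the 12 with the largest smaller change. The stress response class held 2 of 32 (DDIT3 and CBS) and the synthetases 2 of 19 (VARS1 and YARS1). The share over all genes was 1.23%. By the rule that picked these genes, the cantharidin value was the highest and the okadaic acid value the lowest in each.

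**Figure D5:**
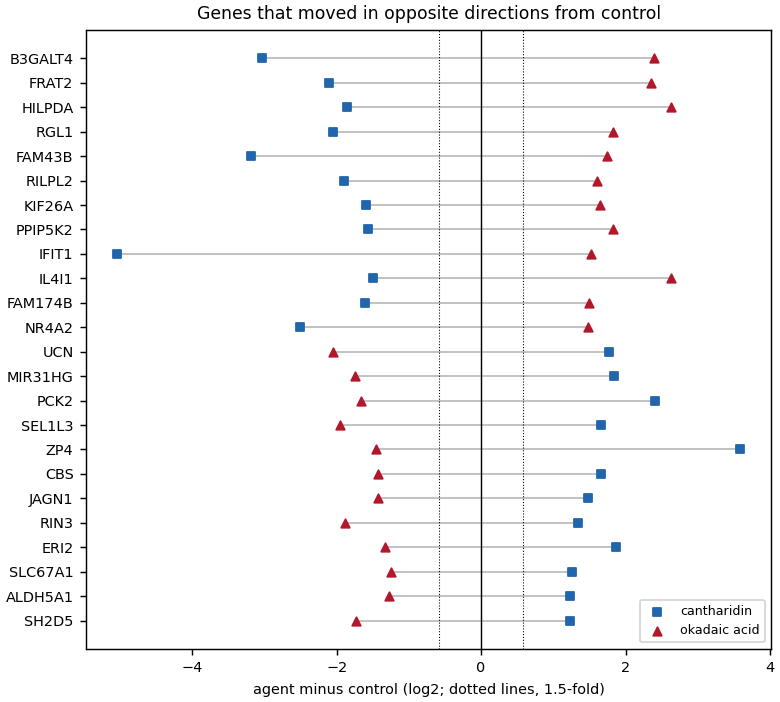
Log2 change from control under cantharidin (squares) and okadaic acid (triangles) for the 12 genes in each direction with the largest smaller change among genes whose every probe agreed. Dotted lines mark 1.5-fold, and the control array is shared by both changes.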

How the data were processed

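RNA of control, cantharidin and okadaic acid cells was hybridised to 1 one-colour array each, and the titles of the samples gave the groups. Scanner output with spot intensity values was deposited by the authors. Its processed intensity was, per the file headers, background-subtracted and detrended within each array by Feature Extraction 11.0.1.1, without scaling between arrays, and the annotation used hg19. The deposited flag columns mark outlier and saturated spots and signal well above background, each scored 0 or 1. A second deposited file holds log2 values normalized by the authors, and how this was done is not given in the sources used here. Its columns correlated with their own arrays at r of 0.998 to 0.999, with medians of 7.74 to 7.75, and it served as an alternative.

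Log2 of the processed signal was averaged per probe over spots without outlier flags (34041 probes with a value on all arrays), and each array's 75th percentile was subtracted. No spot was saturated. Probes were named by unversioned accession through RefSeq (25705 probes, 19699 genes), and a gene was represented by its brightest probe. Coordinates are given only for RefSeq promoter windows, since the builds differ. Probes measured on 1 treated array only were bounded by the dimmest measurable signal of the other.

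Genes named were the 15 per direction with the largest difference and the 12 per direction with opposite changes, in both cases with all probes agreeing, up to 6 members per class, the 5 largest bounds per direction and the genes named by the study. A few of these are not reported here. Further members are named to account for counts or as partners of these. The 71 classes and all members were chosen with earlier results of these data known. Alternatives were normexp (offset 50), other scalings (median, percentile over probes measured on all arrays, quantile, cyclic loess, none), other filters, the deposited table, a threshold of 2-fold, counting genes rather than probes, taking the median of a gene's probes, and centring within 16 blocks. Counting was checked on simulated data. R 4.3.3, limma 3.58.1, Python 3.11.15, numpy 2.4.6, pandas 2.3.3 and matplotlib 3.10.9 were used.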

Additional observations from a re-analysis of the deposited data

How the results depend on the processing

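Each choice was changed alone. Of 6513 probes higher and 4374 lower, the counts were 10918 and 2530 without scaling, when the median difference was 0.56, and 3277 and 2455 at 2-fold. The higher probes were 3937 under normexp, 12856 without a filter on dim probes and 4061 when both signals had to be at least 4 times the lowest measurable one. Of 486 genes with opposite directions, 311 higher and 175 lower under okadaic acid, 741 (472 and 269) were found without the filter, 103 (71 and 32) at 2-fold and 641 and 87 without scaling. Under normexp the 311 became 207. The other alternatives kept these counts within 1.5 times. With the median of a gene's probes in place of the brightest, IER5L turned from -0.84 to 0.63 and NAB1 from -0.59 to 0.28, and the cause was not tested. No class with a median past 1.5-fold changed sign, and 11 of 19 stayed past it in every scaled alternative. No paired analysis was possible because each group holds 1 array, and none could be left out.

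With 1 array a group, spot noise is the one error measured, and variation between cultures is not in any value. The number of arrays limits the precision. The 3 arrays shared a slide and a scan, and each group's place on the slide cannot be told apart from its treatment. A signal below background gives a bound only, and the floor was higher on the okadaic acid array.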

Other observations

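Signalling classes outside the report showed further differences between the agents. Among EGF receptor ligands and receptors, EGFR (1072, 509 and 3188, difference 2.25), ERBB2 (1.36) and EREG (1.29) were higher under okadaic acid, and the ligand HBEGF was lower (-1.32). Feedback inhibitors of ERK signalling were split. SPRY2 (2.55), SPRY1 (2.21), DUSP2 (2.74) and DUSP1 (1.89) were higher and DUSP14 (-2.08) lower, and the dual-specificity phosphatases as a class had 5 of 19 on each side. Of 26 mRNA decay factors 13 were higher and 3 lower, among the higher ZFP36L1, which targets short-lived transcripts for decay (2.96). The splicing factor SRSF1 was higher (104, 54.3 and 911, difference 3.68) while SRSF5 was lower (-1.67). MYC was below control under both agents and lowest under cantharidin (88280, 5889 and 18520, difference 1.26).

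Matrix and metabolic classes held large single differences with medians within 1.5-fold. Collagenase MMP1 was lower under okadaic acid (3867, 73190 and 14190, difference -2.76) and stromelysin MMP3 higher (1.88). The laminin and integrin genes LAMA2 (-3.08) and ITGB4 (-2.50) were lower and ITGA2 higher (2.01). Of 34 glycolysis and hypoxia genes 9 were higher and 12 lower, with the peptide ADM (17890, 13710 and 146600, difference 3.03) and the aldolase ALDOC (3.31) at the top and NDRG1 (-1.86) and ENO2 (-1.81) at the bottom. In the circadian clock CRY2 was lower (2258, 10850 and 1899, difference -2.91) and DBP higher (4808, 88.3 and 517, difference 2.16). Of 513 long non-coding RNAs measured, 31.0% were higher and 17.2% lower, with a median of 0.26, against 30.6%, 20.2% and 0.17 for protein-coding genes. Among 18 hosts of small nucleolar RNAs 4 were higher and 8 lower, SNHG11 (-2.47) the lowest. A further 4369 probes measured on both arrays had no gene name here, of which 1178 were higher under okadaic acid and 594 lower, with a median of 0.22. Over all 22403 probes, 29.1% were higher and 19.5% lower, with a median of 0.17. Genes in both paragraphs were picked from classes named with earlier results of these data known.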
